A study of Mus musculus with 6 samples.

Results

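The phase I enzymes of drug metabolism outside the Cyp2b, Cyp2c, Cyp3a and Cyp4a families were examined in mouse liver 2 h after an oral dose of CBZ. The group was defined by the gene name printed on the array: the cytochromes P450 of the subfamilies Cyp2a, Cyp2d, Cyp2e, Cyp2f, Cyp2g, Cyp2j, Cyp2r, Cyp2t and Cyp2u (Cyp2s and Cyp2w were also sought), the flavin-containing monooxygenases (Fmo), the aldehyde dehydrogenases (Aldh), the alcohol dehydrogenases (Adh), the carboxylesterases (Ces), the aldehyde oxidases (Aox), and Por, Cyb5, Cyb5r3 and Ephx1. A probe was a member if its signal stood well above background in all 3 mice of the CBZ group or all 3 of the DMSO group. Described here are 82 probes of 65 gene names, out of 108 probes of 83 gene names on the array and out of 22352 probes measured in all. All 82 probes were well above background on all 6 arrays, so no member entered through 1 group alone. The membership rule itself uses no measured difference between the groups, but the group was chosen with earlier results of these data known. None of the 82 probes passed the threshold for a difference between CBZ and DMSO. The lowest log2 fold change among them was that of the aldehyde oxidase Aox3 and the highest that of the aldehyde dehydrogenase Aldh3b1.

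Phase I enzymes add or uncover a reactive group on a drug or other foreign compound, by oxidation, reduction or hydrolysis, before it is conjugated and excreted. Microsomal P450s oxidise their substrates with electrons that Por (NADPH-cytochrome P450 reductase) passes to them, and cytochrome b5 with its reductase can supply part of them. Flavin-containing monooxygenases oxidise soft nucleophiles such as amines and sulfides, alcohol and aldehyde dehydrogenases carry alcohols to acids, carboxylesterases split esters and amides, aldehyde oxidases act on aromatic N-heterocycles and aldehydes, and microsomal epoxide hydrolase opens the epoxides that P450s form. Liver hepatocytes hold most of these enzymes at high levels. Some P450 subfamilies there are known for strong induction by foreign compounds, while Cyp2d and many of the hydrolases are known for weak induction.

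The samples were whole liver from C57BL6/J mice, a common inbred laboratory strain, killed 2 h after 1 oral dose. One group of 3 mice received 250 mg/kg of CBZ and the other group of 3 received DMSO, the solvent control; the labels give no sex, age or untreated group and do not spell out CBZ. Each mouse had its own 1-colour array (Cy3-labelled RNA), and all 6 arrays lay on 1 slide, with the 3 DMSO mice and CBZ mouse 1 in its first row and CBZ mice 2 and 3 in its second. Between 42.6% and 45.8% of the spots on an array cleared the scanner software's test for being well above background. The signal's 75th percentile was 9.89 to 12.3 times the local background, and no spot was saturated. All 8 hepatocyte markers (Alb, Apoa1 and others) were measured, and their mean signal deviated by at most 0.17 on the log2 scale from its mean over the 6 mice. Signals are given as log2 of the processed signal relative to the array's 75th percentile, so that 0 is that percentile and 1 unit is a 2-fold difference; they compare mice for 1 probe and do not rank different probes. Differences are CBZ minus DMSO, ± the moderated standard error, from limma (two-sided), with p-values adjusted by the Benjamini-Hochberg method over all 22352 probes and a threshold of 0.05. The number of arrays limits the precision: 3 mice a group gave a median standard error of 0.16 over the 82 probes. In whole tissue, fewer cells of a type and less RNA per cell cannot be told apart.

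The array reads each gene through 60-base probes, and 2 kinds of them bear on the values below. Positions come from the array design and are on mm9; exon and UTR positions were not analysed here. The probes shown were chosen after their values were seen. The Aox3 probe, with the lowest difference of the 82, lies at chr1:58245203-58245262 on the plus strand.
Aox3 probe: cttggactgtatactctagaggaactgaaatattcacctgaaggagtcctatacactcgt

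The second kind are probes that cannot tell near-identical genes apart. Of the 82 probes, 72 carry accessions of 1 gene of the RefSeq table, 7 of several genes and 3 of none. Those of none are the first and second Cyp2u1 probes and the second Aldh1l1 probe. Both Cyp2a4 probes are listed for Cyp2a4 and Cyp2a5, so they report the sum of both transcripts. The one shown lies on the plus strand at chr7:27098659-27099724, a stretch longer than the probe itself, as for a probe across a splice junction.
Cyp2a4 and Cyp2a5 probe: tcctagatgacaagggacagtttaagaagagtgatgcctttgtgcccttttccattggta
The 3 Ces2c probes are listed for Ces2c and the pseudogene Ces2d-ps, and the first of them also for Ces2b. This first probe, on the plus strand at chr8:107378105-107378164, ends in a stop triplet, in capitals.
Ces2c first probe: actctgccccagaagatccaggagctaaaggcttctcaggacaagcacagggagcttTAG
The second Ces2c probe (chr8:107378258-107378317) and the Ces2b probe (chr8:107362421-107362480) share a 30-base window in which 28 bases match; the mismatches are in capitals.
Ces2c second probe, window: gcatCtgtcacctcagtctttgagctttcA
Ces2b probe, window: gcatTtgtcacctcagtctttgagctttcC

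None of the 82 probes passed the adjusted threshold in either direction, against 0.0626% of all probes measured (0.0537% higher and 0.00895% lower in CBZ). The smallest adjusted p among them was 0.46 (limma). At an unadjusted p under 0.05 there were 3 of 82 probes (3.66%), all lower in CBZ (Aox3, Ces2b and Cyp2j5), while 9.38% of all probes reached it (5.01% higher and 4.37% lower). The CBZ and DMSO mice did not overlap for 7 of the 82 probes (8.54%), 2 higher (Aldh3a1 and Ces2a) and 5 lower (Ces1b, Ces2b, the third Ces2c probe, Cyp2f2 and Cyp2j5), against 13.2% of all probes (6.25% higher and 7% lower). Both shares were below those of all probes.

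The differences were small as well as uncalled. Over the 82 probes the log2 fold change ranged from -0.49 to 0.44 with a median of -0.06, beside a median of -0.01 over all probes. For all 82 the 95% interval lay within a 2-fold difference in either direction, as it did for 94.3% of all probes. For 62 of the 82 it lay within 1.5-fold, beside 63.8% of all probes. The sign leaned down, with 59 probes below 0 (72%, against 51.4% of all probes), but this share moved with the scaling and with single mice. It was 63.4% after quantile normalization (51.7% of all probes) and 58.5% when the percentile was taken over the spots well above background on all arrays (45.3% of all probes). Under median scaling, which moves the median of all probes to -0.11, it was 89.0%, beside 70.8% of all probes. Without DMSO mouse 1 it was 57.3% (51.2% of all probes), and without DMSO mouse 3 it was 79.3% (52.6% of all probes).

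**Figure D1:**
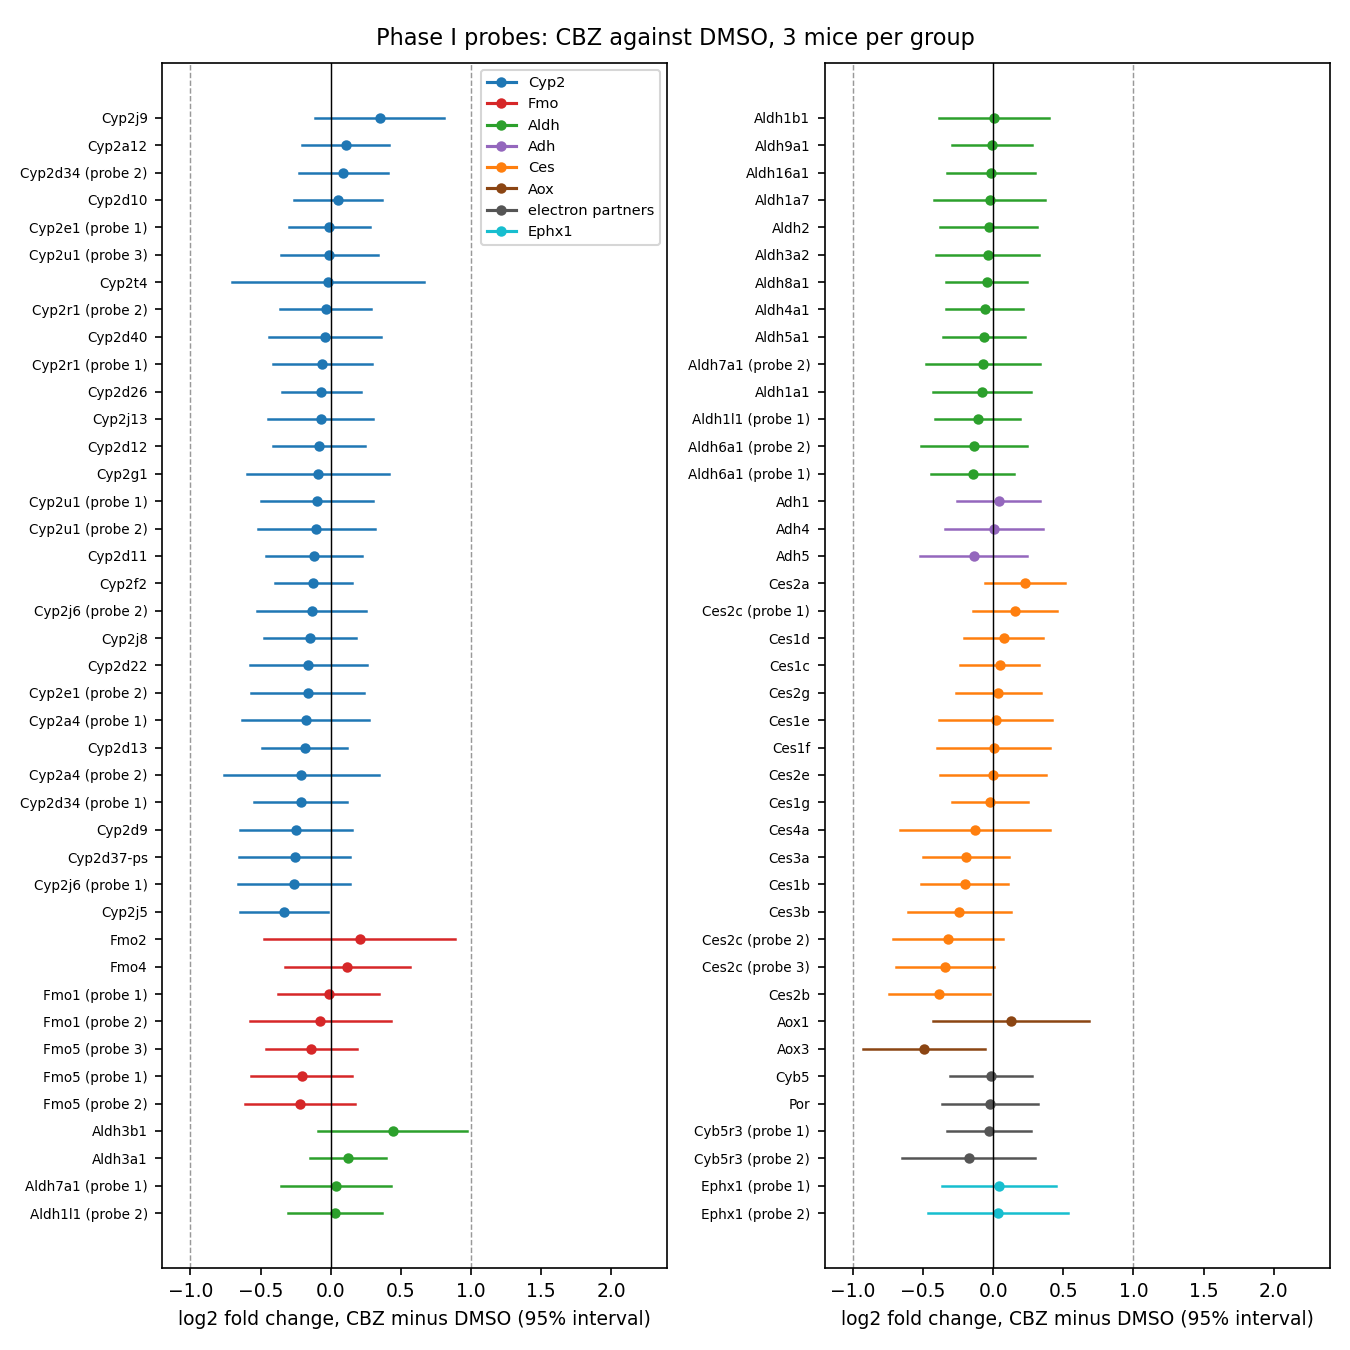
Log2 fold change (CBZ minus DMSO, x axis) with its 95% interval for each of the 82 phase I probes, one row per probe, coloured by family; dashed lines mark a 2-fold difference. All points lie between -0.49 and 0.44, and no interval crosses a dashed line.

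The electron donors of the P450 system differed between the groups by less than their standard error. Por, the reductase on which all microsomal P450s depend, read 7.46, 7.58 and 7.28 in the DMSO mice and 7.52, 7.55 and 7.19 in the CBZ group. Its log2 fold change was -0.02 ± 0.15, with a 95% interval from -0.37 to 0.32. The groups overlapped, and the lowest value was that of CBZ mouse 3. Cyb5 (Cyb5a by its current symbol), the cytochrome that can pass the second electron to a P450, had a log2 fold change of -0.02 ± 0.13. Its reductase Cyb5r3 had 2 probes, at -0.03 ± 0.13 and -0.17 ± 0.21. All 4 probes of these donors had an adjusted p of at least 0.9291 (limma).

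Among the Cyp2 P450s, 26 of 30 probes (86.7%, against 51.4% of all probes) had a log2 fold change below 0. The median was -0.10 and the range was from -0.33 to 0.35. None of the 30 passed the threshold, and 1 had an unadjusted p under 0.05 (limma). Some of the 30 are probes of the same gene, and the share below 0 of all 82 moved with the scaling and with single mice. Cyp2e1, which oxidises ethanol, acetone and paracetamol, read 9.992, 9.995 and 9.955 in the DMSO mice and 9.881, 10.116 and 9.920 in the CBZ group by its first probe, a difference of -0.01 ± 0.13. Its second probe gave -0.16 ± 0.18. The values of Cyp2e1 in the 2 groups overlapped with both probes. Cyp2f2, a P450 known for activating naphthalene, read 9.08, 9.02 and 8.96 in DMSO and 8.91, 8.95 and 8.84 in CBZ. The groups did not overlap, yet the difference was -0.12 ± 0.12 (adjusted p = 0.90, limma).

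No Cyp2a or Cyp2d probe passed the threshold, and for Cyp2a4 the controls lay far apart. The second Cyp2a4 probe, printed above, read 6.71, 6.73 and 5.80 in the DMSO mice and 6.10, 6.19 and 6.32 in the CBZ group. All 3 CBZ mice thus lay between the lowest and the highest control, and the difference was -0.21 ± 0.24. The other probe of the pair, also shared with the coumarin hydroxylase Cyp2a5, gave -0.18 ± 0.20, and Cyp2a12 gave 0.11 ± 0.14. In Cyp2d, the subfamily related to the human debrisoquine hydroxylase, 9 of 11 probes were below 0 (81.8%, against 51.4% of all probes). The median was -0.12. The lowest was Cyp2d37-ps, a pseudogene, at -0.26 ± 0.17 (adjusted p = 0.79, limma). Cyp2d9, a testosterone hydroxylase, stood at -0.25 ± 0.18 and Cyp2d22 at -0.16 ± 0.18. The Cyp2d probes lie together on chromosome 15, between the start of the Cyp2d22 probe at 82204377 and the end of the Cyp2d26 probe at 82620634.

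The Cyp2j subfamily, whose members epoxidise arachidonic acid, held both the lowest and the highest Cyp2 probe. Cyp2j5 read 0.08, 0.07 and 0.01 in the DMSO mice and -0.08, -0.33 and -0.44 in the CBZ group. All 3 CBZ mice were below all 3 controls. Its difference was -0.33 ± 0.14, with an unadjusted p of 0.040 and an adjusted p of 0.50 (limma), and a 95% interval from -0.64 to -0.02. With another background correction (normexp) it was -0.23 (unadjusted p = 0.061, limma), and with quantile normalization -0.34 (unadjusted p = 0.025, limma). Within the first slide row, where CBZ mouse 1 lay with the controls, it was -0.13. Cyp2j9 went the other way, at 0.35 ± 0.20. It read 1.55, 1.36 and 1.46 in DMSO and 1.34, 2.10 and 1.97 in CBZ, so that CBZ mice 2 and 3 were above the controls and CBZ mouse 1 was below them all. The difference was 0.58 without CBZ mouse 1, 0.20 without CBZ mouse 2 and -0.12 within the first slide row. Of the 4 other Cyp2j probes all were below 0, from -0.26 to -0.07. The vitamin D 25-hydroxylase Cyp2r1 (-0.06 ± 0.16 and -0.04 ± 0.14) lay near 0. So did the 3 probes named for the fatty acid hydroxylase Cyp2u1, from -0.10 to -0.01. Their DMSO means were 9.43, 0.31 and -0.98, and only the third, at -0.01, carries an accession of Cyp2u1 in the RefSeq table. The probe with the widest Cyp2 interval was that of Cyp2t4, at -0.02 ± 0.30, where CBZ mouse 2 alone was at -1.74 and the other 5 mice were between -1.22 and -0.61.

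Flavin-containing monooxygenases oxygenate the nitrogen and sulfur atoms of many drugs. Of the 7 Fmo probes described, none passed the threshold, 0 had an unadjusted p under 0.05 (limma), and the median was -0.07. Fmo1, Fmo2 and Fmo4 have their probes on chromosome 1, between the start of the Fmo4 probe at 164724109 and the end of the Fmo2 probe at 164806886. Fmo2 read 2.97, 2.74 and 2.71 in DMSO and 3.69, 3.04 and 2.31 in CBZ. CBZ mouse 1 stood above and CBZ mouse 3 below all controls, and the difference was 0.21 ± 0.30. Fmo4 stood at 0.12 ± 0.20, with CBZ mouse 1 the highest of the 6 at -0.31. Fmo1, known for broad activity toward drugs in rodent liver, stood at -0.01 ± 0.16 and -0.07 ± 0.22 with its 2 probes. Fmo5, which acts as a Baeyer-Villiger oxygenase and lies on chromosome 3, had 3 probes between -0.22 and -0.14. In all 3 of them CBZ mouse 3 had the lowest signal.

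**Figure D2:**
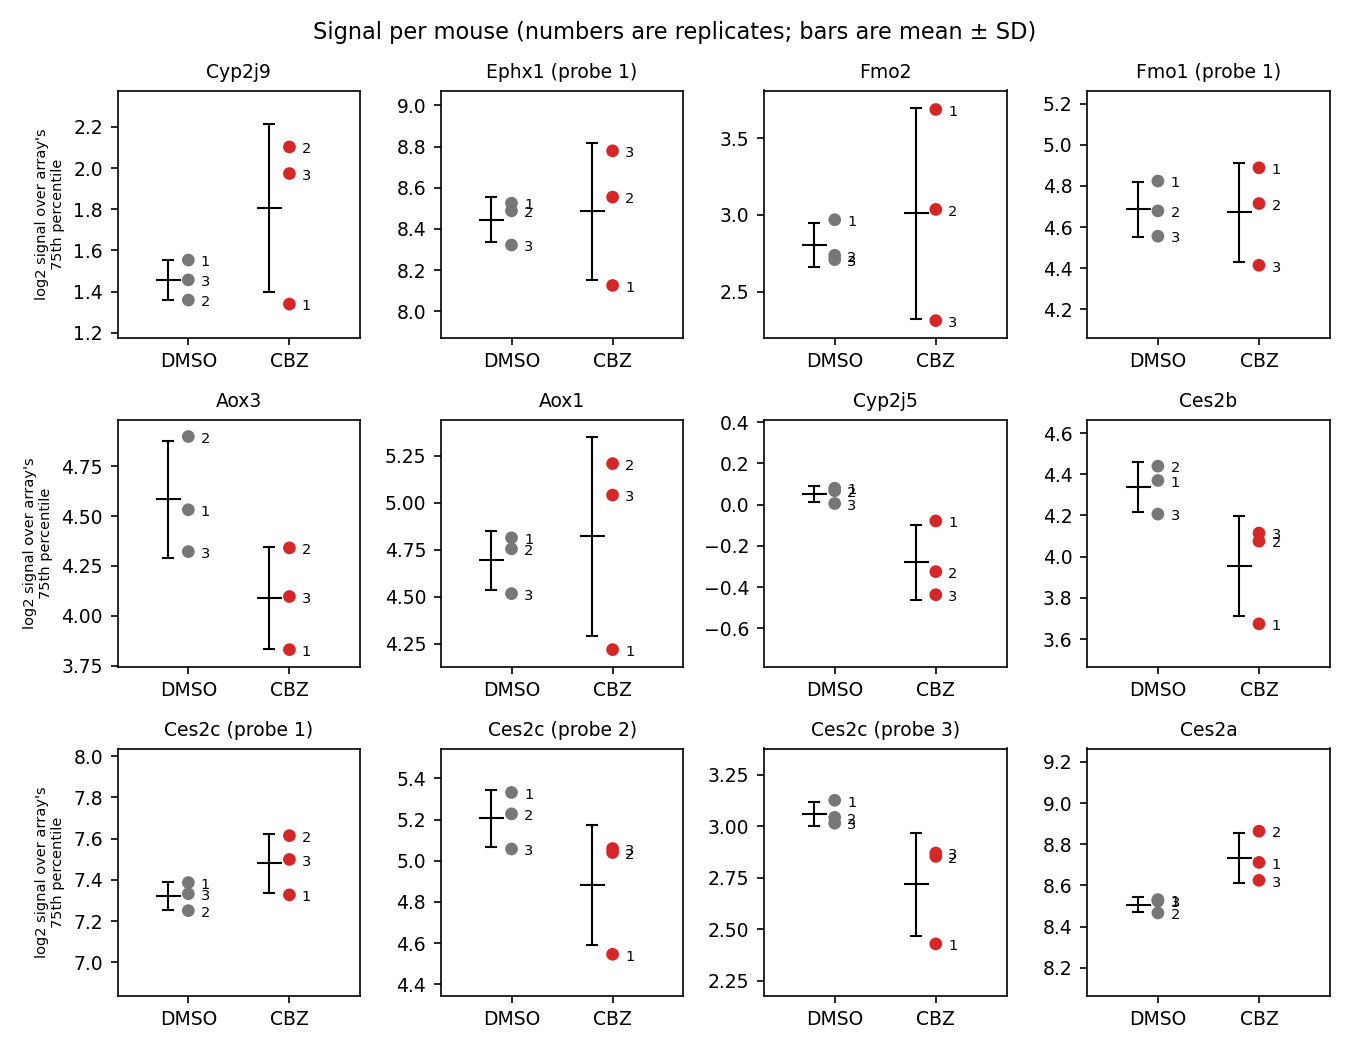
Log2 signal relative to the array's 75th percentile (y axis, scaled to each panel) for 12 phase I probes, one point per mouse labelled with its replicate number, with the mean and SD of each group of 3. CBZ mouse 1 stands above the rest for Fmo2 (3.69) and below the rest for Aox1 (4.22), Ces2b (3.67) and the last 2 Ces2c probes.

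The aldehyde dehydrogenases clear aldehydes that come from alcohols, lipids, amino acids and retinal. Of their 18 probes (15 genes), none passed the threshold and 0 had an unadjusted p under 0.05 (limma). Below 0 were 13 (72.2%, against 51.4% of all probes), and the median was -0.03. Aldh2, the mitochondrial enzyme for acetaldehyde, read 7.946, 8.001 and 7.541 in DMSO and 7.793, 7.809 and 7.792 in CBZ. The CBZ mice were nearly alike and lay within the range of the controls, with a difference of -0.03 ± 0.15. The retinal dehydrogenase Aldh1a1 stood at -0.08 ± 0.15, its close relative Aldh1a7 at -0.03 ± 0.17 and the mitochondrial Aldh1b1 at 0.01 ± 0.17. The folate enzyme Aldh1l1 gave -0.11 ± 0.13 and 0.03 ± 0.15 with its 2 probes, and the fatty aldehyde dehydrogenase Aldh3a2 gave -0.04 ± 0.16. Aldh3a1 read 0.36, 0.48 and 0.45 in DMSO and 0.58, 0.53 and 0.54 in CBZ. This was the only Aldh probe whose groups did not overlap, and its difference was 0.12 ± 0.12 (adjusted p = 0.90, limma). The highest Aldh value, 0.44 ± 0.23 for Aldh3b1 (adjusted p = 0.65, limma), came with 1 low control: DMSO mouse 2 read -0.91, and the other 5 mice read between -0.28 and 0.12. Without that mouse the difference was 0.17, and without DMSO mouse 1 it was 0.68.

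The alcohol dehydrogenases oxidise ethanol and retinol, and Adh5 also acts on the glutathione adduct of formaldehyde. Adh1 read 9.41, 9.34 and 9.28 in DMSO and 9.27, 9.54 and 9.35 in CBZ, a difference of 0.04 ± 0.13. Adh4 stood at 0.00 ± 0.15 and Adh5 at -0.14 ± 0.17. The groups overlapped for all 3 genes.

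Carboxylesterases hydrolyse ester and amide drugs and, in liver, lipid esters. Their probes lie on chromosome 8, and 16 probes of 14 genes were members. None passed the threshold, 1 had an unadjusted p under 0.05, 7 were above and 9 below 0, and the median was -0.01. In the Ces1 genes, Ces1d read 7.69, 7.74 and 7.57 in DMSO and 7.70, 7.82 and 7.71 in CBZ, a difference of 0.08 ± 0.12. Ces1g, a regulator of hepatic lipids, stood at -0.03 ± 0.12 and Ces1e at 0.02 ± 0.18. Ces1b stood at -0.20 ± 0.14, with all CBZ mice below all controls (adjusted p = 0.79, limma); its probe matches the Ces1c probe at 49 of 55 aligned bases, and Ces1c stood at 0.05 ± 0.12. Ces3a, whose probe is also listed for Ces3b, stood at -0.19 ± 0.13 and Ces3b at -0.24 ± 0.16.

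The Ces2 genes, intestinal and hepatic esterases that also include enzymes for acylglycerols, held the largest differences of the family in both directions. Ces2b read 4.37, 4.44 and 4.21 in DMSO and 3.67, 4.08 and 4.11 in CBZ. All CBZ mice were below all controls, and CBZ mouse 1 was lowest. The difference was -0.38 ± 0.16, with an unadjusted p of 0.038 and an adjusted p of 0.49 (limma). It was -0.24 without CBZ mouse 1. Within the first slide row, where CBZ mouse 1 alone is set against the controls, it was -0.66. The second Ces2c probe read 5.33, 5.23 and 5.06 in DMSO and 4.55, 5.04 and 5.06 in CBZ, a difference of -0.32 ± 0.17. The third read 3.13, 3.04 and 3.01 in DMSO and 2.43, 2.85 and 2.87 in CBZ, a difference of -0.34 ± 0.15. These 2 probes overlap by 26 bases and are not independent readings, and the second shares the window printed above with the Ces2b probe. In the CBZ group both probes had the same order of mice as Ces2b, with CBZ mouse 1 lowest. The third probe starts at 107378292, past the shared window. CBZ mouse 1 was also the lowest of the CBZ mice for Aox3, Aox1 and Ephx1. Whether the shared bases bear on this order was not tested.

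The first Ces2c probe, also listed for Ces2b, went the other way. It read 7.39, 7.25 and 7.33 in DMSO and 7.33, 7.61 and 7.50 in CBZ, a difference of 0.16 ± 0.13. Between the first and the third probe the differences were 0.50 apart, and their signs were opposite; this comparison between probes was not tested. Averaging the 3 gave -0.17 ± 0.15 for the gene. Ces2a read 8.53, 8.47 and 8.52 in DMSO and 8.71, 8.86 and 8.62 in CBZ. All CBZ mice were above all controls, yet the difference was 0.23 ± 0.13 with an adjusted p of 0.68 (limma). Ces2e stood at 0.00 ± 0.17. A second Ces2e probe was just outside the membership rule, being well above background on 2 DMSO arrays and 1 CBZ array.

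The aldehyde oxidases, molybdenum enzymes that oxidise azaheterocycles, gave the lowest value of the 82 probes. Aox3, a form abundant in mouse liver, read 4.53, 4.90 and 4.32 in the DMSO mice and 3.83, 4.34 and 4.10 in the CBZ group. CBZ mouse 2 lay just above DMSO mouse 3, and the other CBZ mice were below all controls. The difference was -0.49 ± 0.19, a 1.41-fold lower signal with a 95% interval from -0.93 to -0.06, an unadjusted p of 0.030 and an adjusted p of 0.46 (limma). Leaving out 1 mouse gave from -0.63 (without DMSO mouse 3) to -0.34 (without DMSO mouse 2). Within the first slide row, where CBZ mouse 1 alone is set against the controls, the difference was -0.75. Aox1 had a difference of the other sign. It read 4.81, 4.75 and 4.52 in DMSO and 4.22, 5.21 and 5.04 in CBZ, so that CBZ mouse 1 was the lowest of the 6 and the other 2 CBZ mice were the highest. Its difference was 0.13 ± 0.25. Ephx1, the microsomal epoxide hydrolase, read 8.53, 8.49 and 8.32 in DMSO and 8.13, 8.55 and 8.78 in CBZ with its first probe, again with CBZ mouse 1 lowest and CBZ mouse 3 highest. Its 2 probes gave 0.04 ± 0.18 and 0.03 ± 0.22.

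Probes of the same gene were compared with each other, but not with probes of different genes. The quartiles of the 82 log2 fold changes were -0.15 and 0.01, and their full range was from -0.49 to 0.44. There were 14 genes with more than 1 of the 82 probes, making 20 pairs, and the median distance between the log2 fold changes of a pair was 0.08. In 5 pairs the signs were opposite. The distance was over 0.5 in 1 pair, the first and the third of the Ces2c probes.

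The members also varied from mouse to mouse within the groups. DMSO mouse 3 had the lowest of the 6 signals in 26 of the 82 probes (31.7%, against 21.6% of all probes), and CBZ mice 1 and 3 had the lowest in 23 each (28.1%, against 16.0% and 20.9% of all probes). DMSO mouse 1 had the highest in 31 (37.8%, against 19.0%). The mean deviation of the 82 probes from their means over the 6 mice was 0.13, 0.08 and -0.12 in the DMSO mice and -0.08, 0.04 and -0.06 in the CBZ group, so the widest gap lay between 2 controls. Genes of pericentral hepatocytes, the cells around the central vein where many P450s are made, had mean deviations of 0.16, 0.22 and -0.23 in DMSO and -0.18, 0.11 and -0.09 in CBZ over the 8 measured of 10. Their sign was that of the members' mean in each mouse, and the signs of the periportal list (10 genes) and of the general hepatocyte list matched it in 5 of the 6 mice each. The 8 Kupffer cell markers were at 0.70, -0.30 and -0.50 in the DMSO mice and at 0.20, -0.03 and -0.07 in the CBZ group. The summed linear signal of these markers was 133 to 297 in the DMSO mice and 174 to 212 in the CBZ mice, in units of the array's 75th percentile. Of 9 female-biased genes of liver on the array, 2 were measured, with a mean deviation of -0.17, -0.73 and -1.19 in the DMSO mice and 1.08, 0.58 and 0.43 in the CBZ group. This mean is mostly that of Cyp2b9, an inducible P450 with a log2 fold change of 2.43; for the other gene, Acot3, it was 0.35 ± 0.31, and the groups overlapped. Of 7 male-biased genes measured, none passed the threshold. An unadjusted p under 0.05 (limma) was found for 3, Cyp7b1, Cyp4a12a and Elovl3, all lower in CBZ, beside 3.97% of all genes. Slco1a1 stood at -0.31, while Hsd3b5 (-0.15), Mup20 (-0.10) and Nudt7 (0.00) differed by less than their standard errors. Over the 7 the mean deviations were 0.26, 0.32 and 0.09 in DMSO and -0.47, -0.03 and -0.17 in CBZ. The part of any of these lists in the members' values was not tested.

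**Figure D3:**
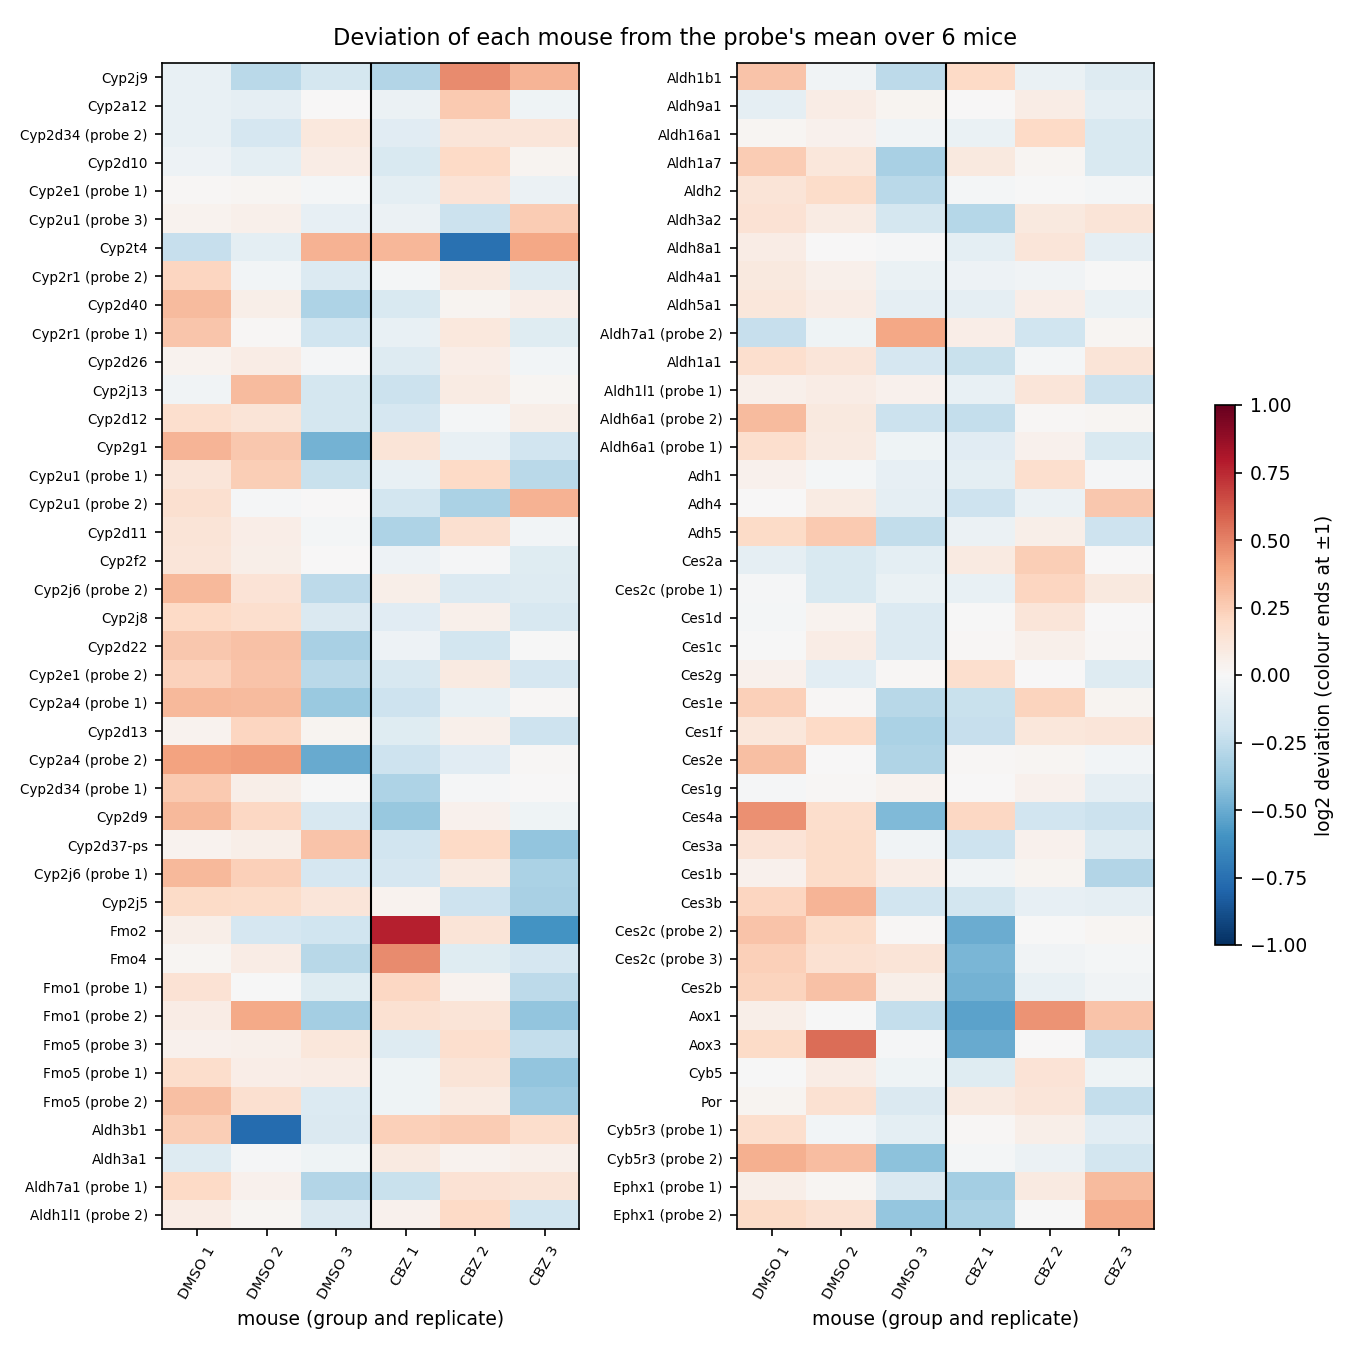
Deviation (log2, colour, ending at ±1) of each of the 6 mice (columns) from the mean over the 6 mice, for the 82 phase I probes (rows, by family); a vertical line separates DMSO from CBZ. DMSO mouse 3 is blue over much of the chart, DMSO mouse 1 is mostly red, and CBZ mouse 1 is blue for Aox1, Aox3, Ces2b and the last 2 Ces2c probes.

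Genes that work beside these enzymes were taken from 4 lists, with 1 probe per gene, the one of highest mean signal. Of 125 listed genes 109 were measured, and 1 passed the threshold, higher in CBZ, while none passed it lower; over all genes the shares were 0.0469% and 0.00587%. At an unadjusted p under 0.05 there were 12 higher and 4 lower, beside 5% and 3.97% of all genes. The gene that passed was Cyp2c55, an arachidonic acid hydroxylase of the P450 list. It read 0.92, 0.91 and 0.64 in the DMSO mice and 2.66, 2.37 and 2.06 in the CBZ group, a difference of 1.54 ± 0.18 (adjusted p = 0.033, limma). Its 3 CBZ mice were all above its controls, and leaving out DMSO mouse 1, 2 or 3 or CBZ mouse 2 or 3 ended the call, as did quantile normalization, the percentile over well-detected spots, keeping all probes and the slide row as a covariate.

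Of the 35 measured genes in the list of other P450s, 23 were above 0 and the median was 0.11, while the 82 phase I probes had a median of -0.06. Cyp2b10, the P450 known as the typical target of phenobarbital-like inducers, had the highest value, 2.89 ± 0.44 (adjusted p = 0.066, limma). It was 10.3-fold, 9.85-fold and 4.04-fold above its DMSO mean in CBZ mice 1, 2 and 3. Cyp2b9, one of the female-biased genes, followed at 2.43 ± 0.35 (adjusted p = 0.065, limma). Cyp3a11, the main drug-metabolising Cyp3a of mouse liver, stood at 0.10 ± 0.12. Cyp1a1, the classic target gene of the aryl hydrocarbon receptor, did not meet the detection rule in either group. Of the 37 measured oxidoreductases and hydrolases outside the members, 0 passed the threshold (limma; the unadjusted p was under 0.05 for 1 higher and 0 lower) and the median was -0.06. Akr1b7, an aldo-keto reductase, stood at 1.18 ± 0.27 (adjusted p = 0.21, limma), with all CBZ mice above all controls. Ephx3, an epoxide hydrolase, stood at 0.32 ± 0.16 and the aldo-keto reductase Akr1c19 at -0.27 ± 0.15.

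Of the 9 measured genes for electron partners and haem supply, 0 passed the threshold (limma; an unadjusted p under 0.05 was found for 1 higher and 0 lower) and the median was -0.03. Alas1, the rate-limiting enzyme of haem synthesis, read 8.33, 8.07 and 7.49 in DMSO and 8.90, 9.07 and 8.91 in CBZ. All CBZ mice were above all controls, and the difference was 1.00 ± 0.21 (adjusted p = 0.17, limma). Fdxr, which feeds electrons to mitochondrial P450s, stood at -0.19 ± 0.12 and the haem-binding P450 partner Pgrmc1 at -0.17 ± 0.15. Of the 28 regulators, 0 passed (limma; unadjusted p under 0.05 for 5 higher and 2 lower) and the median was -0.03. The retinoic acid receptor Rarb came nearest, at 1.10 ± 0.14 (adjusted p = 0.052, limma), followed by Ahr, the aryl hydrocarbon receptor, at 0.73 ± 0.15 (adjusted p = 0.16, limma) and Cebpb, a transcription factor of hepatocytes, at 0.50 ± 0.14 (adjusted p = 0.30, limma). The xenobiotic receptors Nr1i3 (CAR) and Nr1i2 (PXR) stood at 0.29 ± 0.15 and 0.27 ± 0.16.

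**Figure D4:**
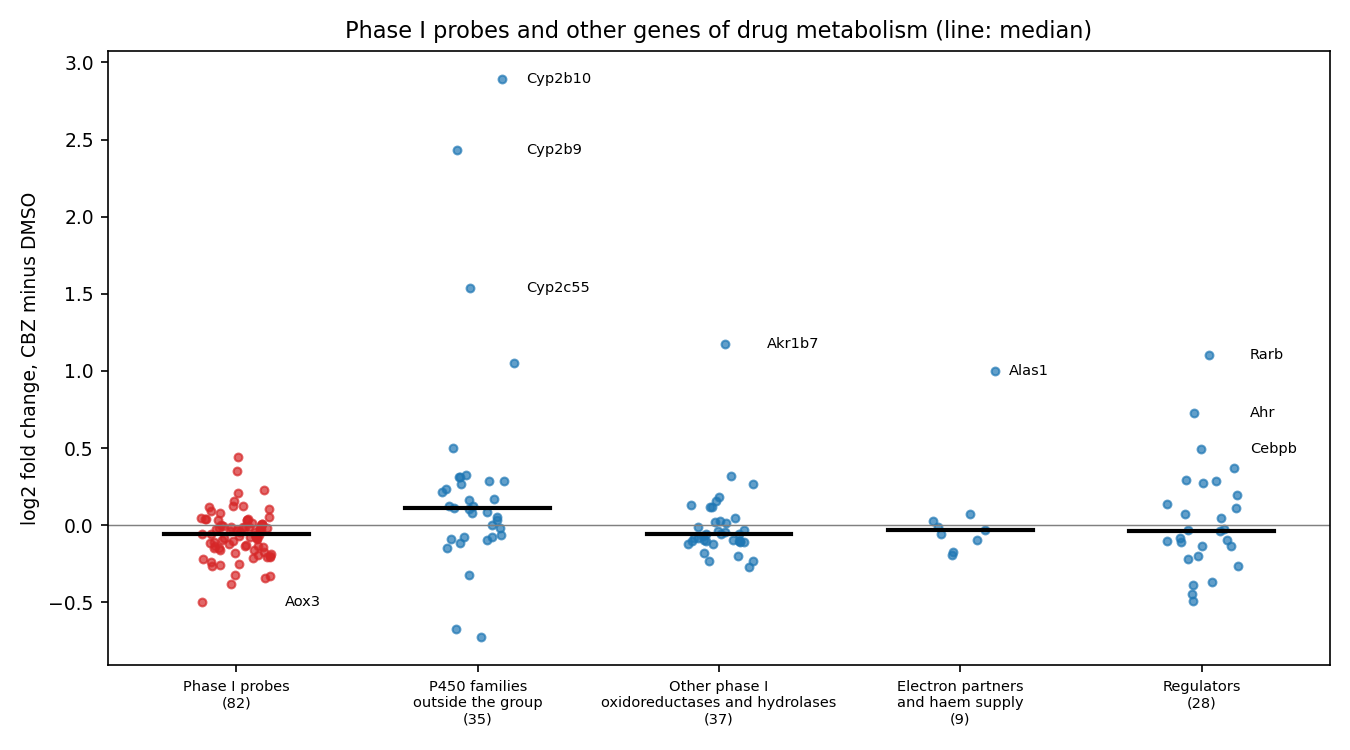
Log2 fold change (CBZ minus DMSO, y axis) of the 82 phase I probes (red) and of the measured genes of the 4 lists (blue, one point per gene), with a line at each median; the horizontal spread is only for legibility. The phase I probes gather around -0.06, between -0.49 and 0.44, and Cyp2b10, Cyp2b9 and Cyp2c55 top the other P450s.

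Of the genes of the group on the array, 18 had no member probe, and 26 probes in all were left out. They included all probes of Cyp2s1, Cyp2w1, Cyp2a22, Cyp2j11, Adh6a, Adh7, Aldh1a2, Aldh1a3, Aox4, Aox3l1 (Aox2), Ces1a, Ces1h, Ces2f, Ces2h and Ces5a. Of the 26 probes, 23 were not well above background on any array; the others were those of Adh7 and Cyp2s1, on 1 CBZ array each, and the second Ces2e probe. For these genes no difference between CBZ and DMSO was measured.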

How the data were processed

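Whole-liver RNA of 6 mice (3 CBZ, 3 DMSO) was read on 1 array each; groups came from the labels. Per the labels' protocols, 100 ng of RNA was amplified and labelled with Cy3. The authors' scans were extracted with Agilent Feature Extraction 10.7.3.1, and the deposited intensity of a spot is already background-subtracted and detrended, per the file headers. The authors' deposited value table is a ratio of that intensity to the array's median, as dividing the scanner values by it showed. Here outlier and control spots were dropped, log2 intensities were scaled to each array's 75th percentile, and spots of a probe were averaged. Probes well above background on all 3 arrays of a group were fitted with limma 3.58.1 in R 4.3.3 (lmFit, eBayes, no covariate), and the script was tested on simulated data. There the threshold was passed by 56.4% of simulated 2-fold changes and 91.3% of 4-fold changes. Each run had 200 changed probes of 22352, while 14 probes passed the threshold in the data. With fewer changed probes the adjusted threshold is harder to pass, so these shares may overstate what the data could detect. Nothing says what the replicate numbers mark. The p-values set the difference of the groups against the spread between mice within them, moderated over all probes.

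Members and gene lists were chosen with earlier results of these data known. One gene that meets the membership rule is not reported here and enters no count of members; its probes stayed in the fit over all probes. Named were the members with an unadjusted p under 0.05, the brightest probe and the smallest p of each family, probe pairs of opposite sign over 0.5 apart, a list of familiar enzymes, and, in the other lists, the 3 smallest p and 7 familiar genes; Aldh3a1, Ces1b, Ces1c, Cyp2a12, Cyp2j9 and Fmo4 outside these were chosen after their values were seen. Alternatives covered background correction, scaling, the filter, the variance model, the authors' table, the replicate block, the slide row, the threshold, gene means, and each mouse left out. The second slide row held no control, so a difference with the slide row as a covariate is that of CBZ mouse 1 from the control mean. Names came from a RefSeq table of GRCm38.p6.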

Additional observations from a re-analysis of the deposited data

How the results depend on the processing

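The counts of phase I probes past the threshold, 0 higher and 0 lower in CBZ, stayed 0 under every alternative and with any mouse left out (limma; unadjusted p under 0.05 for 0 to 2 higher and 0 to 12 lower probes, with 12 when DMSO mouse 3 was left out). The median over the members moved by less than the spread between mice under every alternative, and of 256 family medians 11 moved by more. The 2 filter settings, the intensity trend and the replicate block cannot move a log2 fold change here, and the median stayed at -0.06. The authors' table repeats the array median scaling. These settings also count among the 256 medians and the 1200 values below. Genes of the other lists higher in CBZ (1) numbered 7 with normexp, 0 with quantile normalization, the percentile over well-detected spots, no filter or the slide row, 4 with median scaling, the authors' table, the filter on all 6 arrays, the intensity trend or a threshold of 0.10, and 2 with gene means. Leaving out 1 mouse gave 0 to 1.

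Same-numbered mice of the 2 groups deviated with correlations of -0.24, 0.02 and 0.18, and mice of unlike number with correlations from -0.35 to 0.38. Such correlations cannot show whether the numbers pair the samples, and the labels do not say. With the replicate block 2 genes of the other lists were higher, and 0 phase I probes passed the threshold.

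The sign of 33 of the 75 named probes changed under some alternative, in 106 of 1200 values, all of them phase I probes, and none of these values passed the threshold; their differences were at most 0.35 in size to begin with. Of the 106, 27 came from scalings that moved each of the 82 probes by about the same amount, by -0.10 with array median scaling and the authors' table (9 each, the same probes) and by 0.03 with the percentile over well-detected spots (9); the cause of the others was not tested. With the percentile over well-detected spots the values were 0.00012 for Aldh1a7, 0.00065 for Ces1g, 0.025 for Ces2e, 0.011 for Cyb5, 0.018 for Cyp2e1 (probe 1), 0.0083 for Cyp2t4, 0.017 for Cyp2u1 (probe 3), 0.012 for Fmo1 (probe 1) and 0.0048 for Por. With array median scaling, and alike with the authors' table, they were -0.061 for Adh1, -0.095 for Adh4, -0.092 for Aldh1b1, -0.068 for Aldh1l1 (probe 2), -0.051 for Ces1c, -0.023 for Ces1d, -0.082 for Ces1e, and -0.058 and -0.065 for the Ephx1 probes. With normexp they were -0.0027 for Adh4, -0.0091 for Aldh1b1 and 0.066 for Cyp2u1 (probe 3). With quantile normalization they were 0.018 for Ces1g, 0.030 for Ces2e, 0.013 for Cyb5, 0.033 for Cyp2e1 (probe 1) and 0.017 for Fmo1 (probe 1). The slide row values that follow set CBZ mouse 1 alone against the controls. With the slide row they were -0.081 for Adh1, -0.20 for Adh4, 0.086 for Aldh1a7, -0.48 for Aox1, -0.21 for Ces1e, 0.0093 for Ces2e, -0.0036 for Cyp2a12, 0.083 for Cyp2g1, -0.12 for Cyp2j9, 0.32 for Cyp2t4, -0.32 and -0.30 for the Ephx1 probes, 0.20 and 0.11 for the Fmo1 probes and 0.076 for Por.

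Leaving out each mouse in turn gave ranges across 0 for 30 probes. They were -0.036 to 0.099 for Adh1, -0.13 to 0.11 for Adh4, -0.19 to 0.010 for Aldh1a1, -0.19 to 0.093 for Aldh1a7, -0.12 to 0.15 for Aldh1b1, -0.062 to 0.14 for Aldh1l1 (probe 2), -0.18 to 0.055 for Aldh2, -0.13 to 0.095 for Aldh3a2 and -0.065 to 0.43 for Aox1. In the esterases and electron donors they were -0.0097 to 0.097 for Ces1c, -0.12 to 0.14 for Ces1e, -0.055 to 0.014 for Ces1g, -0.15 to 0.15 for Ces2e, -0.089 to 0.041 for Cyb5, -0.082 to 0.050 for Cyb5r3 (probe 1) and -0.10 to 0.092 for Por. In the P450s they were -0.080 to 0.037 for Cyp2e1 (probe 1), -0.35 to 0.057 for Cyp2g1, -0.17 to 0.064 and -0.11 to 0.063 for the Cyp2r1 probes, -0.22 to 0.35 for Cyp2t4, and -0.23 to 0.010, -0.30 to 0.031 and -0.14 to 0.094 for the Cyp2u1 probes. They were -0.10 to 0.22 and -0.15 to 0.20 for the Ephx1 probes, -0.12 to 0.12 and -0.26 to 0.10 for the Fmo1 probes, -0.13 to 0.56 for Fmo2 and -0.087 to 0.23 for Fmo4. A signal near the background limits dim probes, and 3 mice a group limit all of them.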
